A study of Homo sapiens with 12 samples.

Results

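The genes described here are 10 transcriptional targets of the tumour suppressor p53 outside the CDK inhibitors: MDM2, BBC3, PMAIP1, BAX, FAS, TNFRSF10B, TP53I3, SESN1, ZMAT3 and GDF15. They were chosen by name, with earlier results of these data known. Each symbol matched 1 Ensembl identifier among the 61552 genes in the count files. All 10 were among the 18646 genes that passed the filter on low counts. The libraries came from RD cells, an established cell line from an embryonal rhabdomyosarcoma of the fusion-negative type, a childhood tumour with features of developing muscle. Cells received either a scrambled siRNA (n = 3 libraries) or an siRNA specific to EHMT1, also named GLP (n = 3 libraries), with Lipofectamine RNAiMAX, and RNA was taken after 48 h. Both groups therefore share the cell line, the transfection reagent and the time. EHMT1 is a histone methyltransferase that works with EHMT2 (G9a) on lysine 9 of histone H3. The libraries of a SOX8 siRNA experiment in the same series were not analysed here.

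p53 is a transcription factor that is held at a low level by the ubiquitin ligase MDM2, itself a p53 target, and that accumulates when DNA is damaged or other stresses block MDM2. Its targets stop the cell cycle, limit oxidative and metabolic stress, or start apoptosis, which runs either through BH3-only proteins that free BAX and BAK1 to open the outer mitochondrial membrane, or through death receptors that activate caspase-8 at the cell surface. Several of them also have inputs other than p53: PMAIP1, TNFRSF10B and GDF15 are known targets of the ATF4 and CHOP branch of the stress response.

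RefSeq promoter windows (build GRCh38.p14, 250 bases before to 50 after a start site) were held for 9 of the 10 genes, in 17 entries, because some genes have several start sites; there was no entry for TNFRSF10B. The windows used were searched for the p53 response element, which consists of decamers in tandem. A perfect p53 decamer (10 bases, the same on both strands) was found in the windows of FAS and SESN1, and 6.63% of the 35116 promoter windows searched hold one. A pair of decamers with at most 1 base between them and at most 2 mismatches in all was found in MDM2 and FAS, and 0.533% of windows hold such a pair. In MDM2 it lay at -94 to -75 from an internal start site, and it was shared by 2 overlapping entries. In FAS it lay at -122 to -103 from the start site of 1 of its 3 entries. The windows below show these pairs in capitals, with the windows of PMAIP1 and TP53I3, the genes with the smallest p among those that fell and those that rose, in which neither form was found. A match in letters is a description of the sequence and not evidence of binding.
MDM2 internal start, chr12:68808767-68809066, + strand: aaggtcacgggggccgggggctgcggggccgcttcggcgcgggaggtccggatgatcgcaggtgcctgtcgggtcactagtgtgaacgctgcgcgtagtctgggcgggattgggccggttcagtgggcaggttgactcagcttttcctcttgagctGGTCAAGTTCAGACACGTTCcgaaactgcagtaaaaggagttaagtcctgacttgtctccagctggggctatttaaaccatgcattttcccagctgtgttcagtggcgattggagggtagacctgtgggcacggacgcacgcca
FAS, chr10:88991181-88991480, + strand: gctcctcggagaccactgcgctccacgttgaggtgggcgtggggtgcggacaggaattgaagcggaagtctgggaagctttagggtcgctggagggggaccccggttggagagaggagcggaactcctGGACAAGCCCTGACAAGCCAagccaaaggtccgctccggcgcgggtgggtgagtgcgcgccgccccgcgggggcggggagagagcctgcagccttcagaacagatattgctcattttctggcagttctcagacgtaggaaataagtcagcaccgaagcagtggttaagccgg
PMAIP1, chr18:59899746-59900045, + strand: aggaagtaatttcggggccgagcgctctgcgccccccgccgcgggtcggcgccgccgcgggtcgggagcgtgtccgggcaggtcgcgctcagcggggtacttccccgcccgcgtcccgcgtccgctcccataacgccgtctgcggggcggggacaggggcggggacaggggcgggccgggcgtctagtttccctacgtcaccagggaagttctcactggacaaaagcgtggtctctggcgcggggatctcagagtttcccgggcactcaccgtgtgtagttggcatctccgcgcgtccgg
TP53I3, chr2:24084785-24085084, - strand: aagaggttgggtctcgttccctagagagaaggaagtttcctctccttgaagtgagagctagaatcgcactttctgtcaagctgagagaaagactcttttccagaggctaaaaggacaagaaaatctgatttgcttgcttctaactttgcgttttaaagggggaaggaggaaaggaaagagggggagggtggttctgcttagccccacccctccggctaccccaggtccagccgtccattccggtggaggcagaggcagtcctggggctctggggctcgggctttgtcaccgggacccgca

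Gene counts ran from 40639655 to 47258481 per library. EHMT1 (ENSG00000181090) stood at 130.1 to 155.9 CPM (TMM-scaled counts relative to library size) in the scrambled libraries and at 53.2 to 57.6 CPM in the EHMT1 siRNA libraries, which checks the labels (fitted log2 change -1.34, SE 0.072, edgeR adjusted p = 9.13e-09). Of 12 skeletal muscle lineage markers, 9 were at 1 CPM or more in every library, MYOD1 at 140.8 to 170.04 CPM among them, while MYF5 had no count in any library and MYF6 at most 0.107 CPM. The summed level of these markers was 1489 to 1711 CPM across scrambled libraries and 1720 to 1781 CPM across EHMT1 siRNA libraries; the part of this difference in the results below was not tested. No blood marker of 6 reached 1 CPM in every library, of 6 endothelial markers TEK alone did, and of 6 epithelial markers 3 did (KRT8, KRT18 and CLDN4) with CDH1 at most at 0.0427 CPM and KRT19 at 0. The library of scrambled replicate 2 was the most distant, at -44.6 on the first principal component (35.6% of variance) against -13.9 and -6.71 for replicates 1 and 3 of that group and 20.6 to 23.1 for the EHMT1 siRNA libraries, with a mitochondrial share of counts of 5.41% against 4.29% to 4.83% elsewhere. Separate cultures are not named in the labels for the replicates; the spread on which every p-value rests may be technical. In bulk RNA, fewer cells of a kind and less RNA per cell cannot be told apart.

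With EHMT1 siRNA the 10 p53 targets did not move as a block: TP53I3 and GDF15 rose, PMAIP1 and MDM2 fell, and 6 did not pass the test (edgeR quasi-likelihood test, adjusted p under 0.05 over all genes). PMAIP1, the BH3-only protein also called NOXA, had the smallest p of the 10 and was left at 74.5% of its scrambled level. MDM2, the ligase that destroys p53, was left at 85.4%. TP53I3, a quinone oxidoreductase also called PIG3, stood at 118.4% and GDF15, a secreted cytokine of the TGF-beta family, at 134.6%. The 4 called genes compare with 12.4% of all genes tested that were called, 5.81% higher and 6.54% lower. An unadjusted p under 0.05 was reached by 7 of the 10, against 25.6% of all genes tested. The groups of libraries did not overlap for 7 of the 10 genes, 5 higher and 2 lower with EHMT1 siRNA, against 30.9% of all genes tested (15.4% higher and 15.5% lower). The median log2 change of the 10 was 0.18, with 8 above 0 and 2 below, against a median of 0.00 over all genes tested. The 10 genes and the further lists below were chosen with earlier results of these data known. Such comparisons therefore do not measure an excess over all genes. Without scrambled replicate 2 the same 4 genes were called. For a single gene, an exact two-sided permutation test cannot go below p = 0.1 with 3 against 3 libraries, the value that each of these 7 genes had.

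**Figure D1:**
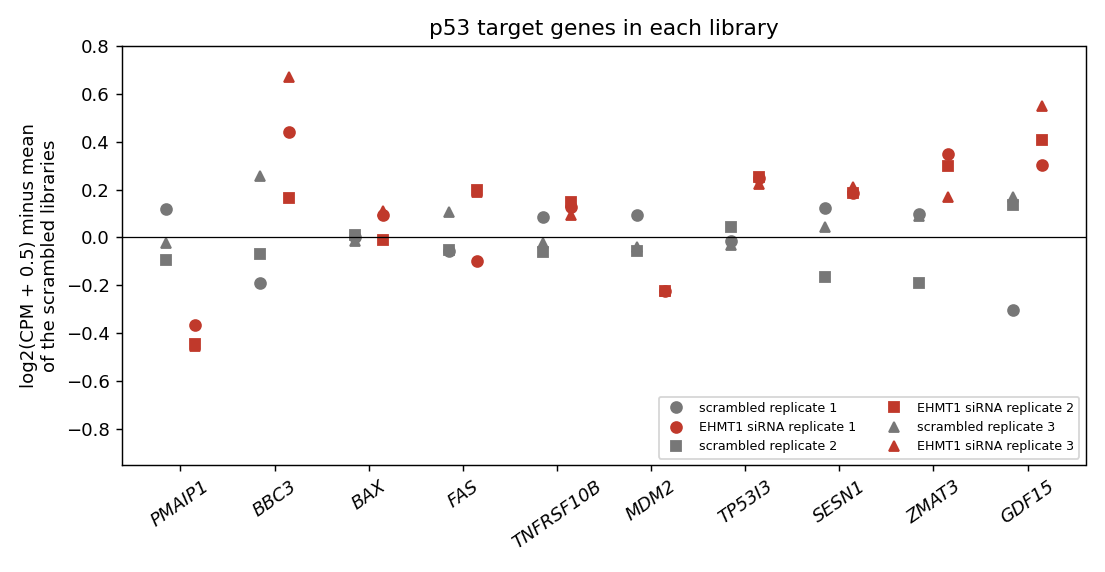
Level of each p53 target in each of the 6 libraries, as log2(CPM + 0.5) minus the mean of the 3 scrambled libraries (grey) with the EHMT1 siRNA libraries in red; the marker shape gives the replicate number. The red points of PMAIP1 and MDM2 lie below all grey points, those of TP53I3, GDF15, TNFRSF10B, SESN1 and ZMAT3 above all grey points, and those of BBC3, BAX and FAS overlap the grey points.

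Among the mitochondrial apoptosis genes, PMAIP1 and BBC3 encode BH3-only proteins and BAX the effector that forms pores. PMAIP1 (ENSG00000141682, GRCh38 chromosome 18, 59899948 to 59904306, plus strand) had 160.4, 138.6 and 145.4 CPM in scrambled replicates 1, 2 and 3 and 114.7, 108.6 and 107.7 CPM in EHMT1 siRNA replicates 1, 2 and 3. Every EHMT1 siRNA library lay below every scrambled library. The log2 change was -0.43 (SE 0.063, 95% interval -0.56 to -0.29, edgeR adjusted p = 0.000304). The call held with each of the 6 libraries left out in turn, with log2 changes of -0.48 to -0.37 and adjusted p of 1.21e-07 to 0.00695 (edgeR), making it the only 1 of the 10 genes for which this was so. No other annotated gene overlaps PMAIP1 in GENCODE release 29.

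BBC3 (ENSG00000105327), also called PUMA, had 3.55, 3.91 and 5.02 CPM in scrambled replicates 1, 2 and 3 and 5.77, 4.68 and 6.84 CPM in EHMT1 siRNA replicates 1, 2 and 3. EHMT1 siRNA replicate 2 lay below scrambled replicate 3, so the groups overlapped. With the largest log2 change of the 10 in size, 0.47 (SE 0.16, 95% interval 0.14 to 0.80), it missed the threshold (edgeR adjusted p = 0.057). Its libraries held 156 to 280 counts and its spread was among the widest of the 10. It passed without scrambled replicate 3 (0.63, edgeR adjusted p = 0.0285) or without EHMT1 siRNA replicate 2 (0.60, edgeR adjusted p = 0.0458). In the strand column that held most reads its log2 change was 0.53 (edgeR adjusted p = 0.0471).

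BAX (ENSG00000087088) had 73.003, 73.3 and 72.2 CPM in scrambled replicates 1, 2 and 3 and 77.7, 72.2 and 78.6 CPM in EHMT1 siRNA replicates 1, 2 and 3. Scrambled replicate 3 and EHMT1 siRNA replicate 2 were nearly level. The log2 change was 0.07 (SE 0.057, edgeR adjusted p = 0.524), and its 95% interval of -0.06 to 0.19 is a fold of 0.962 to 1.14. Of the 3 mitochondrial genes, then, PMAIP1 fell while BBC3 and BAX did not pass the test.

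FAS and TNFRSF10B encode death receptors, the latter a receptor for the ligand TRAIL. TNFRSF10B (ENSG00000120889) had 178.5, 161.2 and 165.4 CPM in scrambled replicates 1, 2 and 3 and 183.9, 186.7 and 179.6 CPM in EHMT1 siRNA replicates 1, 2 and 3. The groups did not overlap, though the lowest EHMT1 siRNA library was close to scrambled replicate 1. The log2 change of 0.12 (SE 0.057, 95% interval 0.00 to 0.24) did not pass (edgeR adjusted p = 0.185). FAS (ENSG00000026103) was near the lower end of what could be measured, with 30 to 38 counts in the scrambled libraries and 30 to 41 in the EHMT1 siRNA libraries. Its mean level was 0.798 ± 0.0839 CPM in the scrambled group and 0.892 ± 0.158 CPM in the other (SD, n = 3 per group), with overlapping groups. A change of FAS was not detectable at this depth: the log2 change was 0.16 with a 95% interval of -0.41 to 0.73 (edgeR adjusted p = 0.77).

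MDM2 (ENSG00000135679, GRCh38 chromosome 12, 68808176 to 68850686, plus strand) closes the negative feedback loop of p53. It had 61.7, 55.6 and 56.2 CPM in scrambled replicates 1, 2 and 3 and 49.3, 49.5 and 49.4 CPM in EHMT1 siRNA replicates 1, 2 and 3. The EHMT1 siRNA libraries were nearly equal and all below the scrambled ones, of which replicate 1 was the highest. The log2 change was -0.23 (SE 0.061, 95% interval -0.36 to -0.10, edgeR adjusted p = 0.0203). The call was lost without scrambled replicate 1 (-0.18, edgeR adjusted p = 0.0547) and on dropping any EHMT1 siRNA library (edgeR adjusted p = 0.0976 to 0.101). MDM2 overlaps the gene CPM, a carboxypeptidase on the opposite strand, and the strand column that held most reads gave it 128.1% of its unstranded count; in that column its log2 change was -0.20 (edgeR adjusted p = 0.036).

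TP53I3, SESN1 and ZMAT3 act in stress handling and RNA control. TP53I3 (ENSG00000115129, GRCh38 chromosome 2, 24077433 to 24085861, minus strand) had 53.6, 55.8 and 52.96 CPM in scrambled replicates 1, 2 and 3 and 64.4, 64.6 and 63.2 CPM in EHMT1 siRNA replicates 1, 2 and 3. Both groups were tight and well apart. The log2 change was 0.24 (SE 0.057, 95% interval 0.12 to 0.36, edgeR adjusted p = 0.0094). Dropping any EHMT1 siRNA library ended the call (edgeR adjusted p = 0.0508 to 0.0705), although the log2 change in those fits stayed at 0.24 to 0.25. TP53I3 lies within FAM228B on the opposite strand; the strand column that held most reads gave it 116.9% of its unstranded count and a log2 change of 0.30 (edgeR adjusted p = 0.00129).

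SESN1 (ENSG00000080546), a sestrin that restrains mTORC1, had 8.12, 6.56 and 7.68 CPM in scrambled replicates 1, 2 and 3 and 8.52, 8.51 and 8.67 CPM in EHMT1 siRNA replicates 1, 2 and 3. The groups did not overlap, but the gap to scrambled replicate 1 was small. Its log2 change of 0.20 (SE 0.10, 95% interval -0.02 to 0.42) did not pass (edgeR adjusted p = 0.245). ZMAT3 (ENSG00000172667), an RNA-binding zinc finger protein, had 17.1, 13.9 and 17.03 CPM in scrambled replicates 1, 2 and 3 and 20.5, 19.7 and 17.99 CPM in EHMT1 siRNA replicates 1, 2 and 3. The groups again did not overlap, and scrambled replicate 2 was the lowest. Its log2 change of 0.27 (SE 0.090, 95% interval 0.09 to 0.46) lay just outside the threshold (edgeR adjusted p = 0.0546); without scrambled replicate 1 it passed at 0.32 (edgeR adjusted p = 0.0394), and without scrambled replicate 2 it was 0.18 (edgeR adjusted p = 0.110).

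GDF15 (ENSG00000130513, GRCh38 chromosome 19, 18374731 to 18389176, plus strand) had 6.41, 8.86 and 9.09 CPM in scrambled replicates 1, 2 and 3 and 10.01, 10.8 and 11.99 CPM in EHMT1 siRNA replicates 1, 2 and 3. All EHMT1 siRNA libraries were higher, and scrambled replicate 1 was low against the other scrambled libraries. The log2 change was 0.43 (SE 0.12, 95% interval 0.17 to 0.69, edgeR adjusted p = 0.0277). Without scrambled replicate 1 it was 0.28 (edgeR adjusted p = 0.0929), and the call was also lost without EHMT1 siRNA replicate 2 (edgeR adjusted p = 0.0975) or 3 (0.36, edgeR adjusted p = 0.156).

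**Figure D2:**
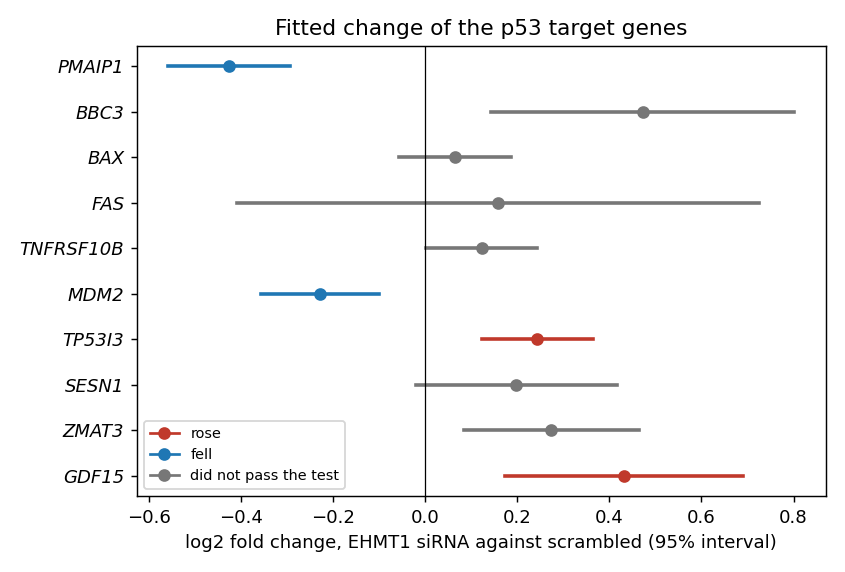
Fitted log2 fold change of each p53 target, EHMT1 siRNA against scrambled, as a point with its 95% interval from the edgeR fit; red marks genes that rose, blue genes that fell and grey genes that did not pass at an adjusted p of 0.05. The intervals of BBC3, ZMAT3 and TNFRSF10B do not reach 0, yet these genes missed the threshold after adjustment over all 18646 genes.

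**Figure D3:**
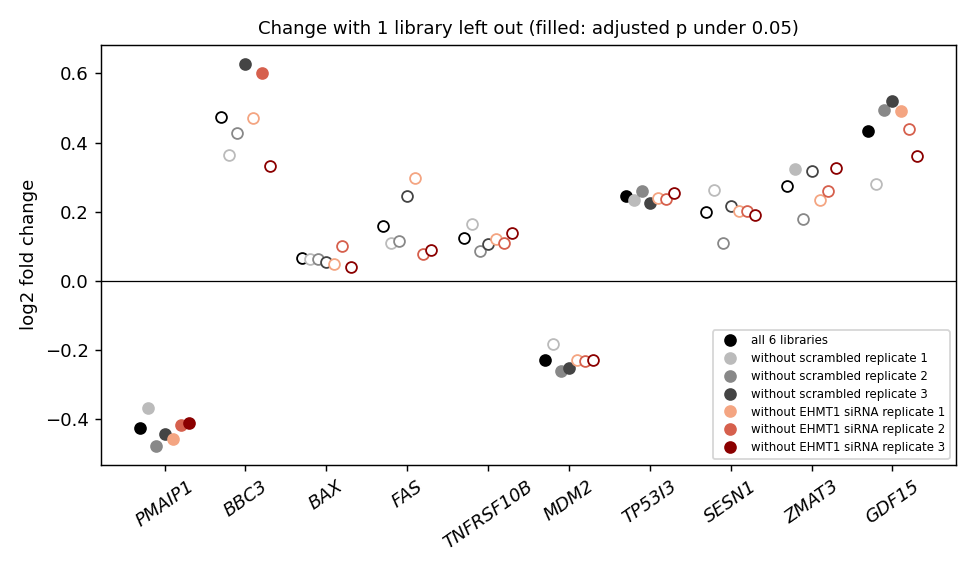
Log2 fold change of each p53 target in the fit of all 6 libraries (black) and with each library left out in turn; filled points had an adjusted p under 0.05 (edgeR). PMAIP1 is filled in all 7 fits, and no gene changed sign.

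Levels of different genes can be set beside each other only per length, and here CPM was divided by the merged exon length in GENCODE release 29, which understates genes with long, rarely used exons such as those of MDM2 (13.3 kb merged). With scrambled siRNA, PMAIP1 was highest at 66.3 ± 4.98 CPM per kb (SD, n = 3), followed by TNFRSF10B at 32.6 ± 1.75, BAX at 28.1 ± 0.229 and TP53I3 at 23.4 ± 0.638 CPM per kb (SD, n = 3 per group). MDM2 at 4.35 ± 0.252 and GDF15 at 3.89 ± 0.712 CPM per kb (SD, n = 3 per group) did not differ beyond their spread. Nor did ZMAT3 at 1.66 ± 0.189, SESN1 at 1.46 ± 0.157 and BBC3 at 1.31 ± 0.241 CPM per kb (SD, n = 3 per group). FAS was lowest at 0.188 ± 0.0197 CPM per kb (SD, n = 3). With EHMT1 siRNA PMAIP1 was still the highest, at 49.4 ± 1.70 CPM per kb (SD, n = 3). GDF15 was at 5.24 ± 0.478 and MDM2 at 3.72 ± 0.00531 CPM per kb (SD, n = 3 per group). Because the merged length understates MDM2, these values do not rank MDM2 against GDF15 in either group. The 2 BH3-only genes were thus far apart in level, and the more abundant was the 1 that fell.

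The coefficient of variation of the 10 genes had a median of 9.02% among scrambled libraries and 4.01% among EHMT1 siRNA libraries. The genes whose levels followed PMAIP1 most closely over the 6 libraries, by Euclidean distance between centred log2 CPM profiles, were WDHD1, a replication factor, TMEM97, the sigma-2 receptor, and JAG1, a Notch ligand, at distances of 0.0632, 0.0786 and 0.0793. Their log2 changes were -0.41, -0.43 and -0.40, and values near that of PMAIP1 follow from how these genes were picked.

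p53 and its regulators gave no call: of 19 genes tested from a list of 20, 0 rose and 0 fell in edgeR. DESeq2 and limma-voom also called 0, and the median log2 change was -0.01. An unadjusted p under 0.05 was reached by 4, against 25.6% of all genes tested, of which 12.4% were called. MDM4, the partner of MDM2 in p53 inhibition, was at -0.04 (95% interval -0.18 to 0.10, edgeR adjusted p = 0.788). The smallest p-values belonged to ATM, the kinase of the DNA break response, at 0.25 (edgeR adjusted p = 0.119) and to RPL11, a ribosomal protein that binds MDM2, at -0.16 (edgeR adjusted p = 0.127). CDKN1A, the CDK inhibitor p21 and the best known p53 target, had 47.95 ± 4.69 and 52.4 ± 1.80 CPM (SD, n = 3 per group), which the fit put on the log2 scale at 0.13 and which did not pass (95% interval -0.02 to 0.28, edgeR adjusted p = 0.267).

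Of 40 other p53 targets 36 were tested, 5 rose and 1 fell, with a median log2 change of 0.03. BTG2, an antiproliferative cofactor of mRNA decay, rose by 0.39, TNFRSF10D, a decoy receptor for TRAIL, by 0.49, and the kinase gene PLK3 by 0.27. TRIM22 rose by 1.44 from a mean of 0.204 CPM, close to the floor of 0.0641 to 0.0751 CPM that 3 counts make in these libraries (counting error only), with an edgeR adjusted p of 0.0487. NINJ1, which ruptures the plasma membrane of dying cells, fell by 0.55 on the log2 scale (edgeR adjusted p = 0.0022). With 1 library left out, NINJ1 was called in 6 of 6 fits, BTG2 in 4 (lost without EHMT1 siRNA replicate 2 or 3), TNFRSF10D in 2 (lost without scrambled replicate 3 or any EHMT1 siRNA library), and PLK3 and TRIM22 in 1 (kept without scrambled replicate 2). The share called, 6 of 36, stands beside the 12.4% of all genes.

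In the rest of the BCL2 family 1 of 12 tested genes rose and 1 fell, with a median log2 change of 0.02. Over all genes tested 5.81% rose and 6.54% fell. BMF, a BH3-only protein tied to the cytoskeleton, rose from 15.4 ± 2.79 to 20.96 ± 1.15 CPM (SD, n = 3 per group), which the fit put on the log2 scale at 0.45 (edgeR adjusted p = 0.00996; lost without EHMT1 siRNA replicate 2). BCL2, the founding inhibitor of apoptosis, fell from 10.2 ± 0.955 to 7.71 ± 0.587 CPM (SD, n = 3 per group), which the fit put on the log2 scale at -0.41 (edgeR adjusted p = 0.0136; lost without scrambled replicate 1 or EHMT1 siRNA replicate 1 or 3). BAD at -0.37 and BID at -0.17, both BH3-only, did not pass (edgeR adjusted p = 0.0637 and 0.0756). MCL1, the inhibitor that PMAIP1 binds, was at 0.06 (95% interval -0.06 to 0.17, edgeR adjusted p = 0.563; named after its value was seen).

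In the death receptor pathway 2 of 9 tested genes rose and 0 fell, against 5.81% and 6.54% of all genes tested. DESeq2 and limma-voom also called 0 lower. The median log2 change was 0.05, and 4 had an unadjusted p under 0.05, against 25.6% of all genes tested. CASP8, the initiator caspase that the receptors recruit, had 27, 25.6 and 22.2 CPM in the scrambled libraries and 32.8, 33.7 and 33.3 CPM in the EHMT1 siRNA libraries and rose, which the fit put on the log2 scale at 0.41 (edgeR adjusted p = 0.00171), and was called with any 1 library left out. TNFRSF25, a death receptor mostly of lymphocytes, rose by 0.53 from 3.44 ± 0.456 CPM (SD, n = 3; edgeR adjusted p = 0.0277; lost without scrambled replicate 3 or any 1 EHMT1 siRNA library). TNFRSF1A, the TNF receptor, at 0.16 and CFLAR, the inhibitor of caspase-8 activation, at 0.14 did not pass (edgeR adjusted p = 0.0945 and 0.133). The ligand gene FASLG had no count, and TNFSF10, which encodes TRAIL, had at most 6 counts in a library and was not tested.

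Of 14 caspase, apoptosome and inhibitor genes, all tested, 2 rose and 2 fell, with a median log2 change of 0.12. The shares over all genes tested were 5.81% higher and 6.54% lower. APAF1, the scaffold of the apoptosome, rose by 0.24 (edgeR adjusted p = 0.0181; lost without any 1 EHMT1 siRNA library) and XIAP, which inhibits caspases, by 0.28 (edgeR adjusted p = 0.00649; lost without EHMT1 siRNA replicate 2). BIRC5, or survivin, which also serves the mitotic chromosomal passenger complex, fell from 136.03 ± 2.00 to 110.1 ± 5.35 CPM (SD, n = 3 per group), which the fit put on the log2 scale at -0.31 (edgeR adjusted p = 0.00204). It was called with any 1 library left out. DIABLO at 0.44 and HTRA2 at 0.15, which counteract XIAP, did not pass (edgeR adjusted p = 0.0829 and 0.154).

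Because PMAIP1, TNFRSF10B and GDF15 also answer to ATF4 and CHOP, genes of the integrated stress response were read beside them. Of 9 tested, 3 rose and 0 fell (0 also in DESeq2 and limma-voom), against 5.81% and 6.54% of all genes tested. An unadjusted p under 0.05 was reached by 7, against 25.6% of all genes tested, and the median log2 change was 0.20. CHAC1, a glutathione-degrading enzyme, rose by 0.63 (edgeR adjusted p = 0.00906; lost without EHMT1 siRNA replicate 2 or 3), ATF3, a stress transcription factor, by 0.24 (edgeR adjusted p = 0.0342) and ASNS, asparagine synthetase, by 0.80 from 0.821 CPM (edgeR adjusted p = 0.0348). ATF3 was lost without scrambled replicate 3 or any 1 EHMT1 siRNA library, and ASNS in every such fit but that without scrambled replicate 3. DDIT4 at 0.20 and TRIB3 at 0.30 did not pass (edgeR adjusted p = 0.0829 and 0.0862). GDF15 thus rose together with these 3 genes while PMAIP1 fell; whether the response has a part in either was not tested.

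**Figure D4:**
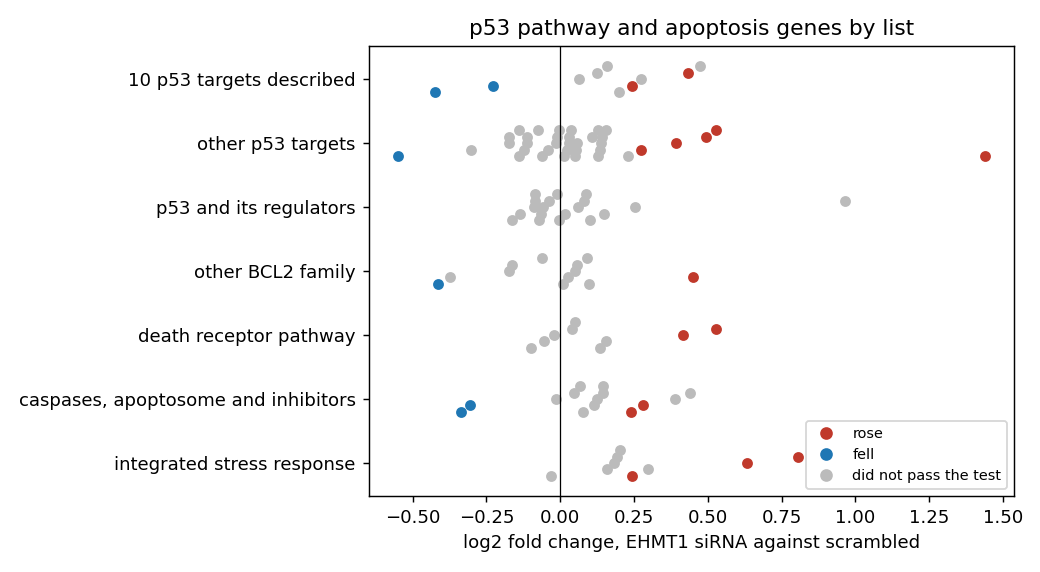
Log2 fold change, EHMT1 siRNA against scrambled, of each tested gene in the list of 10 p53 targets and in 6 further lists; red genes rose, blue genes fell and grey genes did not pass at an adjusted p of 0.05 (edgeR). Most points are grey and near 0, and the regulators of p53 hold no coloured point.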

How the data were processed

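Poly-A RNA was made into NEBNext Ultra libraries, per the labels' protocols. Tools named in the submitters' processing notes are STAR 2.5, HTSeq 0.6.1, CASAVA, bcl2fastq and DESeq2, with build hg19. The authors deposited raw counts per gene, 1 file per library in STAR's layout, with an unstranded column (used for the main results) and 1 for each strand; which annotation they used is not given in the sources used here. Reads that named no gene (20.01% to 21.2%) were left out, 9.94% to 10.3% being ambiguous between genes. In the unstranded column a gene that overlaps another loses such reads. The second strand column held 87.1% to 88.98% of strand counts.

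Sample titles gave the groups. The fit used edgeR 4.0.16 under R 4.3.3 (filterByExpr with a minimum count of 10, TMM, robust quasi-likelihood F test on group, Benjamini-Hochberg adjustment over 18646 genes, threshold 0.05), after a test on simulated data. SE is the absolute log2 change divided by the square root of F, and 95% intervals use the same fit. Libraries of a group differed by more than sampling noise (chi-square per degree of freedom 2.96 to 20.8). Alternatives were RLE or upper-quartile size factors, 2 other filters, DESeq2 1.42.0, limma-voom 3.58.1, a replicate block, each strand column, a threshold of 0.01 and leaving out each library.

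The members and lists were chosen with earlier results of these data known. The rule for named genes took the 10 members, EHMT1, MDM4 and CDKN1A; from each other list up to 6 genes with the smallest adjusted p (all called ones and the next 2 where fewer were called); and the 3 profiles nearest to the member with the smallest p.
Promoter windows on chromosome 8 were left out of the motif search. A few genes chosen by this rule are left out of the text.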

Additional observations from a re-analysis of the deposited data

How the results depend on the processing

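None of the 10 p53 targets changed sign under any alternative that gave a value. Leaving out 1 library gave 0 to 3 members higher and 1 to 2 lower, against 2 and 2 with all 6; over all genes it gave 452 to 1625 higher and 484 to 1923 lower, against 1084 and 1220. An adjusted p under 0.01 left 1 member higher and 1 lower (492 and 525 of all genes). Without a filter on low counts 4 members were higher. Strand column 3, with few reads per gene, called 0 members either way and 90 genes higher and 87 lower. The other fits (RLE, upper quartile, at least 1 CPM in 3 libraries, DESeq2, limma-voom, strand column 4) gave 2 to 3 members higher and 2 lower. With a replicate block, 4 members were higher (BBC3 and ZMAT3 were added) and 2 lower, and 3106 genes were called against 2304. Same-numbered libraries deviated together with r = 0.13, 0.05 and 0.04 across genes. Scrambled replicate 2 with EHMT1 siRNA replicate 3 gave r = 0.0496, and the other differently numbered pairs gave -0.0957 to -0.0200. The labels do not say that a replicate number marks a shared culture or day, so the main fit had no block. These small correlations do not decide whether the libraries are paired. With 1 library left out, other p53 targets gave 1 to 6 higher and 1 to 4 lower, p53 regulators 0 to 1 each way, the BCL2 family 0 to 1 higher and 0 to 2 lower, death receptor genes 1 to 3 higher and 0 lower, caspase genes 0 to 3 higher and 2 lower, and stress response genes 0 to 5 higher and 0 lower. The remaining settings, strand column 3 aside, gave 1 to 5 higher and 1 lower among other p53 targets, 0 to 1 each way among p53 regulators, 1 higher and 0 to 3 lower in the BCL2 family, 1 to 2 higher among death receptor genes, 1 to 2 higher and 2 lower among caspase genes and 1 to 6 higher among stress response genes, the most with the block or without a filter. Depth limits FAS, with 30 to 41 counts a library.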
